A study of Mus musculus with 30 samples.

Results

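The SMAD negative-feedback regulators are genes whose products restrain signalling by the activin, TGF-β and BMP ligands. They were taken from the table of read counts by symbol: Smad7, Smad6, Bambi, Pmepa1, Ldlrad4, Skil, Ski, Tgif1, Smurf1 and Smurf2. All 10 were found among the 39017 genes of the table, and 9 of them were among the 15627 genes with enough reads to be tested. Smad6 was left out by the filter on low counts.

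Poly(A) RNA was sequenced from βTC3 cells, an insulin-producing mouse line derived from a pancreatic islet tumour. In all groups the cells received doxycycline (DOX) at 1 µg/ml for 24 hours, which switches on the inducible plasmid each line carries. The control line (plasmid PB-33), a line with ALK7 (PB-33 ALK7) and a line with a dominant-negative ALK7 (PB-33 ALK7-DN, called ALK7-DN below) had a common plasmid backbone. The knock-down lines carried PB-31 with a hairpin against ALK7 (ALK7-sh2, called sh2) or a pair of hairpins (ALK7-sh1/2, called sh1/2), so that the samples held no control for the PB-31 backbone. Each of these 5 lines was measured with DOX alone and with DOX plus activin B at 50 ng/ml for 24 hours, in 3 wells per group, which gave 30 libraries in 10 groups. The labels give batch 2 for the 6 libraries of ALK7-DN cells with activin B and of sh2 cells with DOX alone, and batch 1 for the other 24. Batch and group cannot be told apart in any comparison that involves those 6 libraries. The replicates were wells of a line, so p-values measure the spread between these wells, which may be technical. That spread was estimated over all 30 libraries together. The SE or p-value of a line thus does not reflect the spread of its own wells alone.

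Activin B binds activin type II receptors, which then activate a type I receptor such as ALK4 or ALK7, the product of Acvr1c. The receptor phosphorylates SMAD2 and SMAD3, and these enter the nucleus with SMAD4 and change transcription. Several of the induced genes encode inhibitors of the same pathway at the receptor, in the cytoplasm or in the nucleus, a negative feedback known from many cell types. ALK7 is expressed in pancreatic beta cells.

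Promoter sequences from the RefSeq set, build GRCm38.p6, were matched for 5 of the 10 members: Tgif1, Smurf1, Smurf2, Ski and Smad6. The 250 bases before each annotated start were searched for the SMAD-binding motif GTCTG on both strands (CAGAC on the other strand), which occurs in 42.2% of all 32851 promoters of that length. Tgif1 is shown with the first and second of its 5 annotated starts, because its transcripts were more abundant with activin B in every line, and Smurf1 and Smurf2 are shown beside it because their transcripts changed little or not at all. All 4 stretches lie on the minus strand and read 5′ to 3′ towards the start, with each match in capitals.
Tgif1 start 1, chr17:70853533-70853782: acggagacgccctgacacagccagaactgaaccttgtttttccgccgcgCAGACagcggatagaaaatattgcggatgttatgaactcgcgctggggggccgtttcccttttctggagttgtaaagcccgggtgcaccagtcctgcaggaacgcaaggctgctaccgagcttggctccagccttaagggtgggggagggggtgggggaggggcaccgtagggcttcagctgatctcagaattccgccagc
Tgif1 start 2, chr17:70851735-70851984: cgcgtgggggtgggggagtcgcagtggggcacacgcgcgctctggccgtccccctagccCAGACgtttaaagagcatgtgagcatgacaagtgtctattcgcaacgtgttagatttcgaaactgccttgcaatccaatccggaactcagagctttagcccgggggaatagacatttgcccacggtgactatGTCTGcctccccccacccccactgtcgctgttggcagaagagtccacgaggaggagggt
Smurf1, chr5:144965831-144966080: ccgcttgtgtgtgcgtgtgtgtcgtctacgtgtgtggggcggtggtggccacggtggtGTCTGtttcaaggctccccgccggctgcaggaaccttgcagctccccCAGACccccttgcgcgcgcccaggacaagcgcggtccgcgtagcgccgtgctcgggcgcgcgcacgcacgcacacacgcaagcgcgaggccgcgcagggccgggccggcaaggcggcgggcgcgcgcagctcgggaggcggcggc
Smurf2, chr11:106920716-106920965: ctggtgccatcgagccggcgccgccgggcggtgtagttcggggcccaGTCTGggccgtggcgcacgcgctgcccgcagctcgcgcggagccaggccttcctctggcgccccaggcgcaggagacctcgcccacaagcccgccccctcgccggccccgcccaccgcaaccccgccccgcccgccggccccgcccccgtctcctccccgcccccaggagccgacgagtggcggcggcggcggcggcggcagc
The match lies 196 bases before start 1 of Tgif1, and the matches lie 186 and 54 bases before its start 2. Of the Tgif1 starts not shown, start 4 has a match 12 bases before it, and starts 3 and 5 have 0. Smurf1 has matches 187 and 140 bases before its start, and Smurf2 has a match 198 bases before its start. The promoters of Ski and Smad6 hold 0 matches. The longer palindrome GTCTAGAC, found in 0.167% of all promoters, is in none of the promoters of these 5 genes. The stretches differ in base composition, with a GC content of 59.6% and 58.8% before the shown Tgif1 starts, 74.8% before Smurf1 and 82.0% before Smurf2. A gene's read count does not tell which of its starts was used, and a match to the motif is a description of the letters only.

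The targeted gene was measured first. Acvr1c was at 165 ± 6.34 CPM (read counts scaled by library size; SD, n = 3) in control cells with DOX alone, 154 ± 10.99 in ALK7 cells and 161 ± 7.50 in ALK7-DN cells, so that neither expression construct was visible in its counts. ALK7 cells and ALK7-DN cells therefore stand below for the lines so labelled, and directions drawn from them rest on the label. It was at 68.5 ± 12.8 CPM in sh2 cells and 55.3 ± 8.001 in sh1/2 cells. With activin B it was at 101 ± 8.05 CPM in control, 80.6 ± 5.46 in ALK7, 107 ± 8.38 in ALK7-DN, 42.7 ± 1.79 in sh2 and 26.7 ± 1.26 in sh1/2 cells. The lines labelled as knock-down had the lower values in both conditions, and the values fell by 1.27 ± 0.11 (sh2) and 1.58 ± 0.11 (sh1/2) on the log2 scale against control cells with DOX alone (SE; adjusted p = 1.05e-08 and 4.16e-11, edgeR quasi-likelihood test with Benjamini-Hochberg adjustment). The libraries held 18904884 to 34740789 counts. The sum over 12 beta cell genes was 15950 to 27930 CPM, led by Ins2, Iapp, Chga and Ins1, while Mafa (2.57 to 27.9 CPM) and Slc2a2 (0.695 to 6.06 CPM) were low. Of the acinar genes, Prss2 and Amy2b were at 0 and Cpa1 was at most at 0.0336 CPM. The highest genes of the other lists were Spp1 of duct cells (at most 0.909 CPM), Col1a1 of stromal cells (0.641 to 2.15), Plvap of endothelial cells (1.53 to 3.90) and Cd68 of immune cells (1.49 to 3.74), while Lum and Cd3e had at most 1 read in a library. In bulk RNA, fewer cells of a kind and less RNA per cell cannot be told apart.

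Levels of the members in resting cells spanned a wide range when read counts were divided by exon length. In control cells with DOX alone, the nuclear corepressor gene Ski was at 11.01 ± 1.10 CPM per kilobase and the ubiquitin ligase gene Smurf2 at 10.9 ± 0.158, which did not differ beyond their spread. Below them came Smurf1 with 7.03 ± 0.133 and Bambi with 6.48 ± 0.158 CPM per kilobase. Skil, at 3.06 ± 0.160 CPM per kilobase, and Pmepa1, at 2.61 ± 0.484, overlapped within their spread. Ldlrad4 (0.754 ± 0.0977), Tgif1 (0.753 ± 0.0781) and Smad7 (0.622 ± 0.101) were low and close to each other. Smad6 stood last at 0.0280 ± 0.0277 CPM per kilobase. With activin B the order changed: in control cells Bambi led with 22.0 ± 1.06 CPM per kilobase, followed by Pmepa1 with 15.03 ± 1.91, then Smurf2 (12.3 ± 0.605), Ski (11.6 ± 1.60) and Skil (10.99 ± 0.444). Ski overlapped both of its neighbours within their spread. Smurf1 followed at 8.09 ± 1.01, then Smad7 at 3.04 ± 0.361, Ldlrad4 at 2.68 ± 0.216, Tgif1 at 1.82 ± 0.199 and Smad6 at 0.0343 ± 0.0181 CPM per kilobase.

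The first comparison asked how activin B changed the feedback genes within each line. In control cells 7 of the 9 tested members were called, all of them higher with activin B, where 20.3% of all genes tested were called in either direction. The counts were 8 members in ALK7 cells (25.3% of all genes), 7 in ALK7-DN cells (16.1%), 8 in sh2 cells (19.6%) and 8 in sh1/2 cells (36.6%), again all higher, and 0 members were called lower in any line. Of the 8 members with an unadjusted p under 0.05 in control cells, 0 were lower as well, and DESeq2 called 0 members lower. That unadjusted threshold was passed in control cells by 4733 of the 15627 genes tested. The members divided into 6 genes that rose in all 5 lines, namely Smad7, Bambi, Pmepa1, Ldlrad4, Skil and Tgif1, and 3 genes with small or no changes, namely Ski, Smurf1 and Smurf2. Of all genes tested, 4.33% (677 genes) were called higher in all 5 lines. The median log2 fold change of the 9 members was 1.76 in control, 1.66 in ALK7, 1.59 in ALK7-DN, 1.45 in sh2 and 1.13 in sh1/2 cells, and that of all genes tested lay between -0.01 and 0.00.

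**Figure D1:**
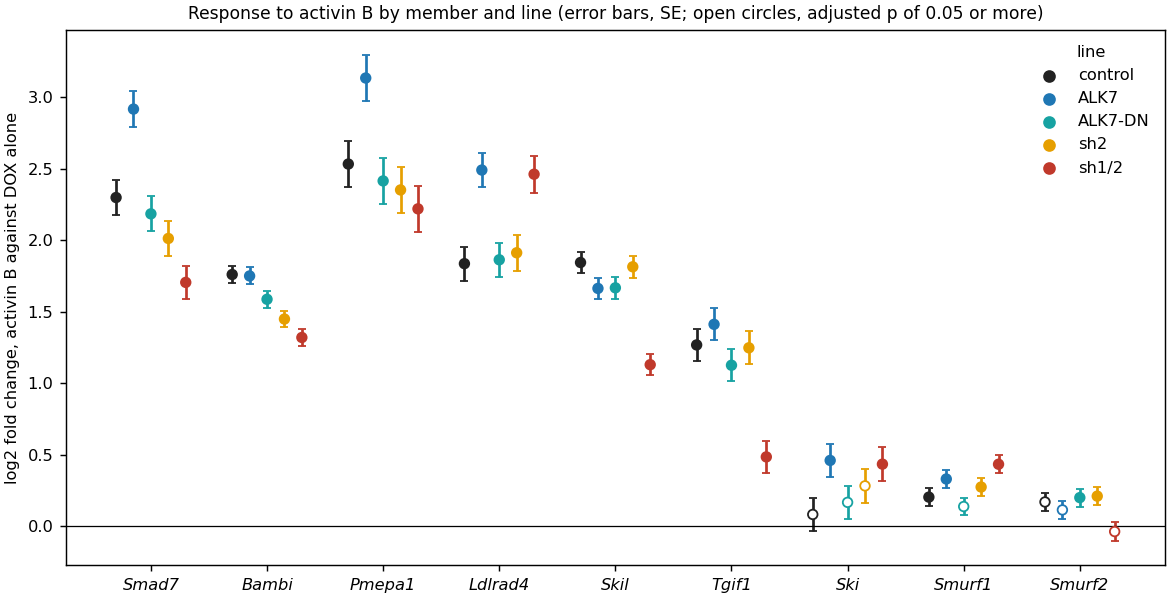
Response of the 9 tested members to activin B in each line, as the log2 fold change against DOX alone with its SE. Filled circles have an adjusted p under 0.05. Smad7, Bambi, Pmepa1, Ldlrad4, Skil and Tgif1 lie above 0 in all 5 lines, and Ski, Smurf1 and Smurf2 lie between -0.04 and 0.46.

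The inhibitory SMADs bind activated type I receptors and block the phosphorylation of the other SMADs. Smad7 (mm10, chromosome 18, 75367529 to 75395935, plus strand, protein-coding) acts on activin, TGF-β and BMP receptors. With DOX alone its values in control cells were 3.17, 2.30 and 2.96 CPM, and with activin B 15.3, 12.04 and 13.9 CPM. ALK7 cells had 2.01, 2.27 and 2.40 CPM without and 17.04, 17.3 and 16.2 CPM with activin B. In ALK7-DN cells the values were 2.26, 2.29 and 2.62 against 12.2, 10.6 and 9.84 CPM. Every library with activin B thus lay above every library without it in these lines, and the ALK7 libraries with activin B lay above all others. The sh2 libraries had 3.59, 3.55 and 3.15 CPM with DOX alone and 14.6, 12.99 and 14.01 with activin B. The sh1/2 libraries had 4.66, 3.49 and 4.49 CPM with DOX alone and 14.04, 13.1 and 13.9 with activin B. The sh1/2 libraries with DOX alone lay above the control libraries, those of sh2 overlapped them, and with activin B both hairpin lines lay within the control range. The log2 fold change was 2.30 ± 0.12 (SE; a 4.92-fold rise) in control, 2.92 ± 0.12 (7.55-fold) in ALK7, 2.18 ± 0.12 in ALK7-DN, 2.01 ± 0.12 in sh2 and 1.71 ± 0.12 (3.26-fold) in sh1/2 cells. The adjusted p lay between 3.64e-15 in ALK7 and 6.03e-11 in sh1/2 cells (edgeR quasi-likelihood test).

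Smad6 (chromosome 9, 63953076 to 64022059, minus strand, protein-coding), the inhibitory SMAD known mainly for restraining BMP signalling, was nearly absent. It had 56 reads over all 30 libraries, 0 to 7 per library, and was at 0 in 7 of them. The highest value, 0.225 CPM, came from an ALK7 library with activin B. Its raw reads with DOX alone and with activin B were 0, 1 and 0 against 3, 7 and 4 in ALK7 cells. In ALK7-DN cells they were 0, 0 and 0 against 1, 4 and 2, in different batches, and they overlapped in the other 3 lines. How often other genes with so few reads separate in this way was not counted, so no direction is drawn from it. Smad6 was not tested, and with so few reads no fold change is given. The loop through the inhibitory SMADs was thus measured in Smad7 alone.

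Bambi (chromosome 18, 3507923 to 3516404, plus strand, protein-coding) encodes a transmembrane protein that resembles a type I receptor but has no kinase domain, and so competes with the true receptors. It was abundant in every group. Control cells had 33.2, 33.5 and 32.0 CPM with DOX alone and 117, 106 and 111 CPM with activin B. In ALK7 cells they were 41.8, 38.0 and 36.9 against 131, 137 and 125 CPM. ALK7-DN cells had 34.5, 35.6 and 33.5 against 106, 108 and 97.2 CPM. The groups with and without activin B did not overlap in any line. In sh2 cells the values were 46.4, 46.7 and 46.1 CPM with DOX alone and 118, 131 and 131 with activin B. The sh1/2 cells had 53.3, 59.4 and 52.4 against 134, 138 and 140.1 CPM. With DOX alone, every hairpin library lay above every library of the other 3 lines. The log2 fold change went from 1.76 ± 0.06 in control and 1.75 ± 0.06 in ALK7 cells to 1.59 ± 0.06 in ALK7-DN, 1.45 ± 0.06 in sh2 and 1.32 ± 0.06 in sh1/2 cells, with adjusted p values from 4.99e-17 to 2.48e-14. A processed pseudogene, Bambi-ps1 on chromosome 2, had 1865 counts over all libraries against 70672 for Bambi, and reads that match both cannot be assigned with certainty.

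Pmepa1 and Ldlrad4 encode related membrane proteins that bind receptor-activated SMADs and keep them from the receptor. Pmepa1 (chromosome 2, 173224458 to 173276533, minus strand, protein-coding) had the largest fold changes of the members in control, ALK7, ALK7-DN and sh2 cells. The control libraries had 14.9, 10.2 and 13.4 CPM with DOX alone and 83.5, 64.7 and 73.3 with activin B. ALK7 libraries had 12.1, 11.6 and 11.2 against 113, 99.3 and 93.1 CPM. In ALK7-DN cells Pmepa1 was at 13.2, 10.2 and 8.96 against 68.4, 55.6 and 48.7 CPM. With DOX alone the values of these lines overlapped, and with activin B those of ALK7 cells were the highest. The sh2 libraries had 11.3, 10.2 and 8.81 CPM against 51.2, 50.6 and 53.5 CPM. In sh1/2 cells Pmepa1 was at 9.25, 11.6 and 7.16 CPM against 42.5, 44.4 and 44.9 CPM. The sh1/2 libraries with activin B lay below every other library with activin B. The log2 fold change was 2.53 ± 0.16 (5.78-fold) in control, 3.13 ± 0.16 (8.77-fold) in ALK7, 2.41 ± 0.16 in ALK7-DN, 2.35 ± 0.16 in sh2 and 2.22 ± 0.16 in sh1/2 cells. Adjusted p values ran from 1.58e-13 to 1.67e-10.

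Ldlrad4 (chromosome 18, 67933257 to 68268630, plus strand, protein-coding) was less abundant and followed a different order of lines. It was at 4.14, 3.48 and 4.52 CPM in control cells with DOX alone and at 15.4, 13.1 and 14.8 CPM with activin B. ALK7 cells had 3.39, 3.43 and 3.34 against 19.2, 18.9 and 19.0 CPM. For ALK7-DN cells the values were 3.52, 3.32 and 3.04 against 13.1, 11.7 and 11.1 CPM. The ALK7 libraries with activin B were higher than those of any other line. Ldlrad4 in sh2 cells was at 1.89, 2.41 and 3.15 CPM with DOX alone and at 9.61, 8.65 and 9.66 CPM with activin B. The sh1/2 libraries had 1.66, 1.93 and 1.55 against 9.56, 9.44 and 9.62 CPM. The lowest values of the series in each condition came from the hairpin lines. The log2 fold change was 1.84 ± 0.12 in control, 2.49 ± 0.12 in ALK7, 1.86 ± 0.12 in ALK7-DN, 1.91 ± 0.13 in sh2 and 2.46 ± 0.13 (5.51-fold) in sh1/2 cells (adjusted p from 4.21e-13 to 1.42e-11). Fam210a, a gene with 52358 counts on the opposite strand, overlaps the span of Ldlrad4, and although the labels name a stranded kit, the strand setting of the counting was not given in the sources used here.

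**Figure D2:**
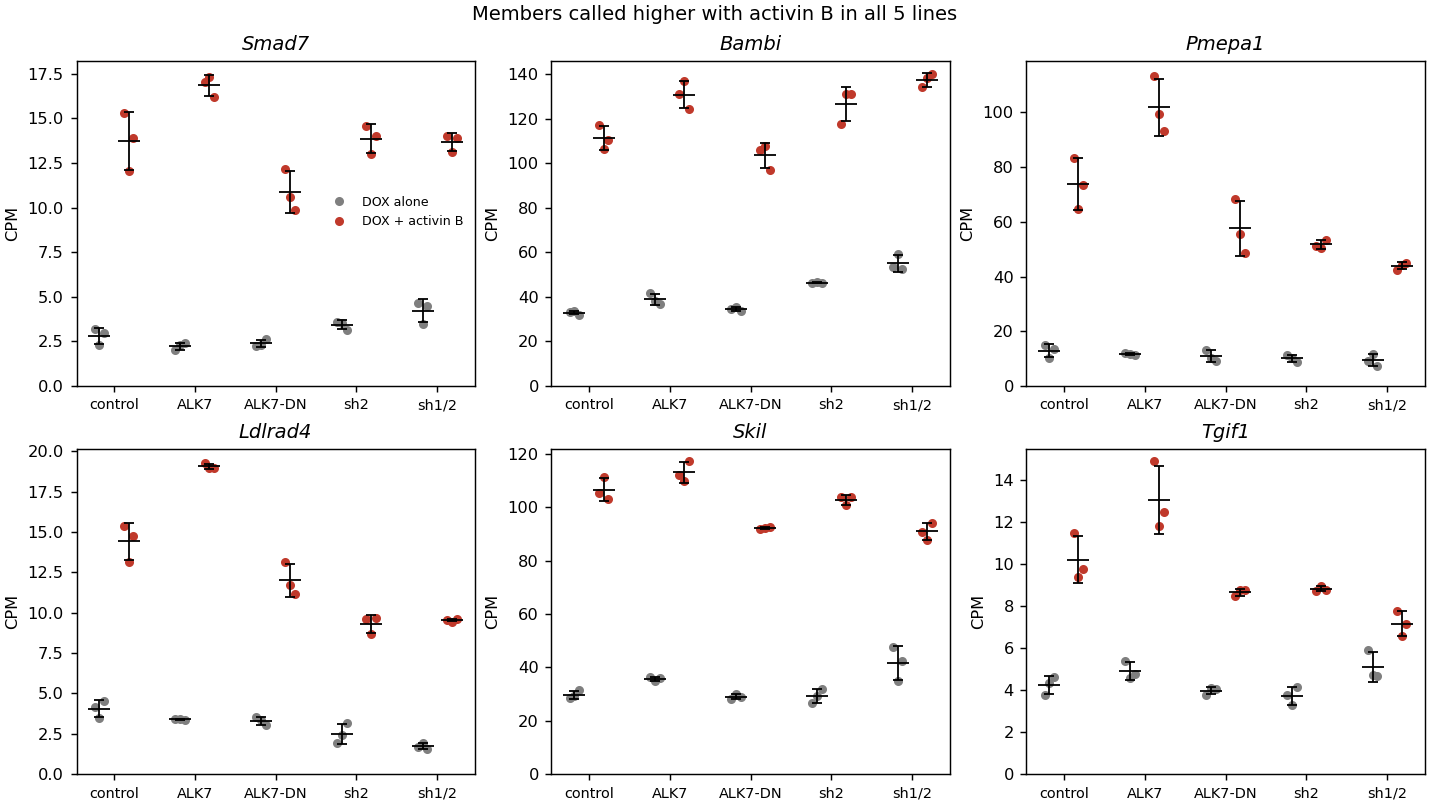
CPM of the 6 members called higher with activin B in all 5 lines. Each point is a library (grey, DOX alone; red, DOX plus activin B) and bars show the mean ± SD of 3 libraries. Grey and red points do not overlap in any panel, and the Ldlrad4 points of sh1/2 cells with DOX alone, from 1.55 to 1.93 CPM, are the lowest of that panel apart from the sh2 library at 1.89.

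The nuclear corepressors bind SMAD complexes on DNA and recruit histone deacetylases. Skil (chromosome 3, 31095058 to 31122577, plus strand, protein-coding), which encodes SnoN, and the homeobox gene Tgif1 (chromosome 17, 70844205 to 70853546, minus strand, protein-coding) rose in all lines, and Ski was called higher in 2 of the 5. Skil was at 28.4, 29.3 and 31.4 CPM in control cells with DOX alone and at 105, 111 and 103 CPM with activin B. ALK7 cells had 36.2, 34.7 and 36.2 against 112, 109.9 and 117 CPM. In ALK7-DN cells the values were 28.1, 29.9 and 29.0 against 91.7, 92.1 and 92.4 CPM. Here, too, the treated and untreated libraries were far apart. The sh2 libraries had 26.7, 29.3 and 31.7 against 104, 100.7 and 104 CPM. The sh1/2 libraries had 47.7, 34.8 and 42.3 CPM with DOX alone and 90.9, 87.9 and 94.1 CPM with activin B. The distance between the conditions was smallest in sh1/2 cells, whose DOX libraries were also the most spread. The log2 fold change was 1.84 ± 0.08 (3.59-fold) in control, 1.66 ± 0.08 in ALK7, 1.67 ± 0.08 in ALK7-DN, 1.81 ± 0.08 in sh2 and 1.13 ± 0.07 (2.19-fold) in sh1/2 cells (adjusted p from 2.76e-15 to 2.79e-11).

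Tgif1 had the smallest response of the 6. Control cells had 3.75, 4.36 and 4.61 CPM with DOX alone and 11.5, 9.38 and 9.77 CPM with activin B. In ALK7 cells the values were 5.41, 4.58 and 4.76 against 14.9, 11.8 and 12.5 CPM, and in ALK7-DN cells 3.77, 4.09 and 4.06 against 8.48, 8.76 and 8.78 CPM. All treated libraries of these 3 lines exceeded all untreated ones. The sh2 cells had 3.74, 3.29 and 4.14 against 8.75, 8.97 and 8.78 CPM. The sh1/2 cells had 5.93, 4.73 and 4.65 against 7.77, 6.56 and 7.17 CPM, the smallest gap of all lines. The log2 fold change was 1.27 ± 0.11 in control, 1.41 ± 0.11 in ALK7, 1.13 ± 0.11 in ALK7-DN, 1.25 ± 0.11 in sh2 and 0.49 ± 0.11 in sh1/2 cells. The adjusted p was 0.00197 in sh1/2 cells and at most 3.33e-08 in the other lines, and the sh1/2 call was lost in a model of the 6 sh1/2 libraries alone (0.50, adjusted p = 0.0648).

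Ski (chromosome 4, 155154075 to 155222592, minus strand, protein-coding), the close relative of Skil, was abundant and changed little. Its values in control cells overlapped between the conditions, with 67.9, 55.9 and 59.8 CPM with DOX alone and 72.9, 55.3 and 66.1 CPM with activin B (log2 fold change 0.08 ± 0.12, adjusted p = 0.690). It was called higher in ALK7 cells (0.46 ± 0.12, adjusted p = 0.00446), from 48.2 to 50.6 CPM without and 59.0 to 77.9 CPM with activin B. In sh1/2 cells it was also called higher (0.44 ± 0.12, adjusted p = 0.00651), from 58.9 to 76.0 against 89.0 to 91.8 CPM. The sh1/2 call was lost after correction for GC content (0.18, adjusted p = 0.0522), without sh1/2 DOX replicate 3 (0.35, adjusted p = 0.0549) and with replicate 2 as the lone sh1/2 DOX library and control activin B replicate 2 left out (0.25, adjusted p = 0.378). The values of ALK7-DN cells (0.17 ± 0.12) and sh2 cells (0.28 ± 0.12, adjusted p = 0.0991) did not pass the test. Ski was called in 1 of 14 alternative settings in control, 2 of 14 in ALK7-DN and 4 of 13 in sh2 cells. Under GC correction with the replicate number as a block, it was called higher in each of these lines. The values there were 0.17 in control (adjusted p = 0.0149), 0.22 in ALK7-DN (adjusted p = 0.00336) and 0.35 in sh2 cells (adjusted p = 6.73e-05). Ski and Skil thus had different patterns in the same libraries.

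Smurf1 (chromosome 5, 144876495 to 144965847, minus strand) and Smurf2 (chromosome 11, 106820066 to 106920715, minus strand), both protein-coding, encode ubiquitin ligases that SMAD7 brings to the receptors and that mark receptors and SMADs for degradation. Smurf1 ranged from 40.02 to 58.9 CPM over all libraries, and the log2 fold change was 0.20 ± 0.06 in control (adjusted p = 0.0219), 0.33 ± 0.06 in ALK7, 0.14 ± 0.06 in ALK7-DN (adjusted p = 0.156), 0.28 ± 0.06 in sh2 and 0.43 ± 0.06 in sh1/2 cells (adjusted p = 1.19e-05). In control cells the treated libraries, at 57.5, 44.8 and 51.5 CPM, overlapped the untreated ones, at 45.0, 45.1 and 43.6 CPM. That call was lost without control activin B replicate 1 (0.11, adjusted p = 0.187) or 3 (0.20, adjusted p = 0.0585) or without control DOX replicate 3 (0.19, adjusted p = 0.0827). It was also lost in a model of the control libraries alone (0.20, adjusted p = 0.236) and with no filter on low counts (0.20, adjusted p = 0.0589). Smurf2 ranged from 64.7 to 86.3 CPM and was called higher in ALK7-DN (0.20 ± 0.06, adjusted p = 0.0306) and sh2 cells (0.21 ± 0.06, adjusted p = 0.0193). In ALK7-DN cells the Smurf2 call was lost without any 1 library other than activin B replicate 1 (adjusted p from 0.0717 to 0.114), and in sh2 cells without activin B replicate 1 or DOX replicate 1 or 2 (adjusted p from 0.0507 to 0.134). Its changes in control (0.17 ± 0.06, adjusted p = 0.0617), ALK7 (0.12 ± 0.06) and sh1/2 cells (-0.04 ± 0.06) did not pass. The largest change of a Smurf gene on the log2 scale was that of Smurf1 in sh1/2 cells (0.43). It was close to the smallest among the 6 genes above, that of Tgif1 in the same cells (0.49). Over the alternative settings these changes overlapped, from 0.18 to 0.47 for Smurf1 and from 0.42 to 0.64 for Tgif1.

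**Figure D3:**
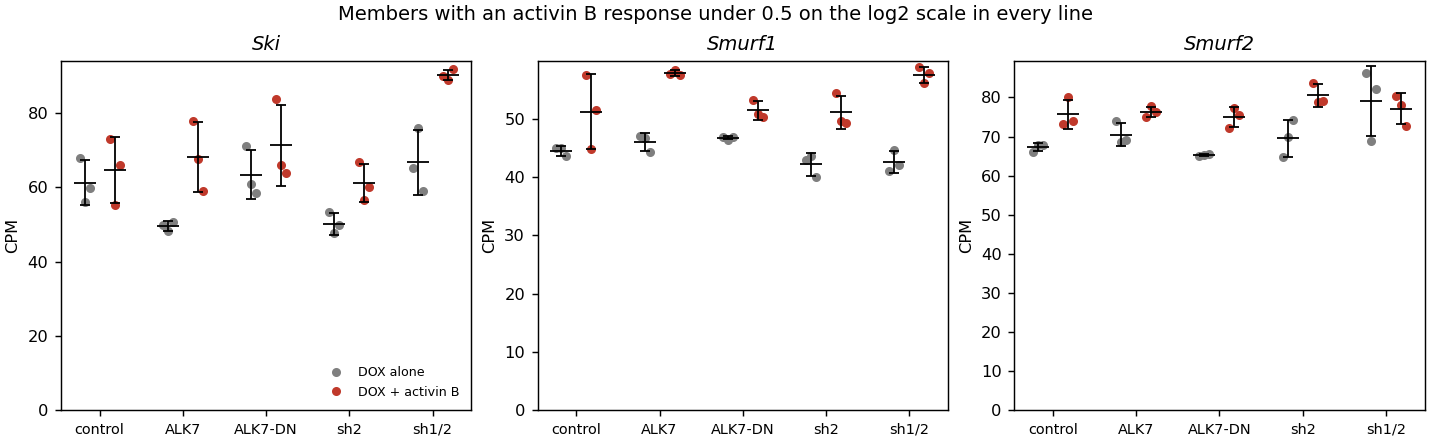
CPM of Ski, Smurf1 and Smurf2 in each library (grey, DOX alone; red, DOX plus activin B), with the mean ± SD of 3 libraries. The conditions overlap for Ski and Smurf1 in control cells, and the Ski libraries of sh1/2 cells with activin B, from 89.0 to 91.8 CPM, are the highest of that panel.

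The second comparison asked whether the lines carrying ALK7, ALK7-DN or hairpins responded differently from the control line, as a test of the difference of the log2 fold changes. Between sh1/2 and control cells, 4 members had a smaller response and Ldlrad4 a larger one, where 17.7% of all genes were called in either direction. The difference was -0.71 ± 0.10 for Skil (SE; adjusted p = 0.00029), -0.78 ± 0.16 for Tgif1 (adjusted p = 0.00508), -0.59 ± 0.17 for Smad7 (adjusted p = 0.0313) and -0.44 ± 0.08 for Bambi (adjusted p = 0.00293). For Ldlrad4 it was 0.62 ± 0.17 (adjusted p = 0.0304). The differences of Pmepa1 (-0.31 ± 0.22), Ski (0.35 ± 0.17), Smurf1 (0.23 ± 0.09) and Smurf2 (-0.21 ± 0.09) did not pass, and with the replicate block Ski (0.37, adjusted p = 0.0168) and Smurf1 (0.24, adjusted p = 0.041) did. In CPM, the smaller responses of Smad7 and Bambi went with higher values under DOX alone, and that of Tgif1 with lower values under activin B.

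These calls depended on the libraries and settings used. In a model of the 12 libraries of both lines alone, 0 of the 5 were called, with nearly the same differences: Skil -0.72 (adjusted p = 0.0667), Bambi -0.44 (0.0646), Tgif1 -0.79 (0.125), Smad7 -0.60 (0.181) and Ldlrad4 0.62 (0.165). The libraries differed in their GC content. The Spearman correlation between a gene's GC content and the library's deviation from its group mean was -0.674 in control activin B replicate 2 and -0.477 and -0.585 in sh1/2 DOX replicates 1 and 3, the libraries low on GC-rich genes in the groups compared. It was 0.612 in control activin B replicate 1 and 0.696 in sh1/2 DOX replicate 2, the strongest skews the other way, and -0.518 and -0.475 in replicate 3 of ALK7-DN and of ALK7 cells with activin B. Leaving out the first 3 libraries keeps sh1/2 DOX replicate 2 as the lone library of its group, which is then assumed to vary like the other groups. In that model Skil (-0.42) and Bambi (-0.57) were called and Smad7 (-0.41, adjusted p = 0.73), Tgif1 (-0.72, adjusted p = 0.11) and Ldlrad4 (0.41, adjusted p = 0.929) were not. The GC content of the longest annotated transcript was 41.0% for Skil, 44.0% for Bambi, 44.4% for Ldlrad4, 45.0% for Tgif1, 54.5% for Pmepa1, 55.5% for Smurf1, 55.6% for Ski and 56.9% for Smad7, with Smurf2 at 46.8%. After a correction of each library for GC content, Skil (-0.41), Tgif1 (-0.61), Smad7 (-1.05) and Ldlrad4 (0.81) kept their calls, Bambi lost its call (-0.24, adjusted p = 0.264) and Pmepa1 gained one (-0.57, adjusted p = 0.0372). Leaving out any 1 of the 12 libraries kept the calls of Skil, Tgif1 and Bambi. Smad7 was not called with no filter on low counts (-0.58, adjusted p = 0.0546), nor without control DOX replicate 2, sh1/2 activin B replicate 2 or 3 or sh1/2 DOX replicate 1 or 3 (differences from -0.60 to -0.46, adjusted p from 0.0538 to 0.111). Ldlrad4 was not called without control activin B replicate 2, control DOX replicate 1 or 3, or the same 4 sh1/2 libraries (0.54 to 0.63, adjusted p from 0.0579 to 0.104). The number of calls ran from 3 to 8, the highest without sh1/2 DOX replicate 2, where Ski (0.46), Smurf1 (0.27) and Smurf2 (-0.30) were called too.

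**Figure D4:**
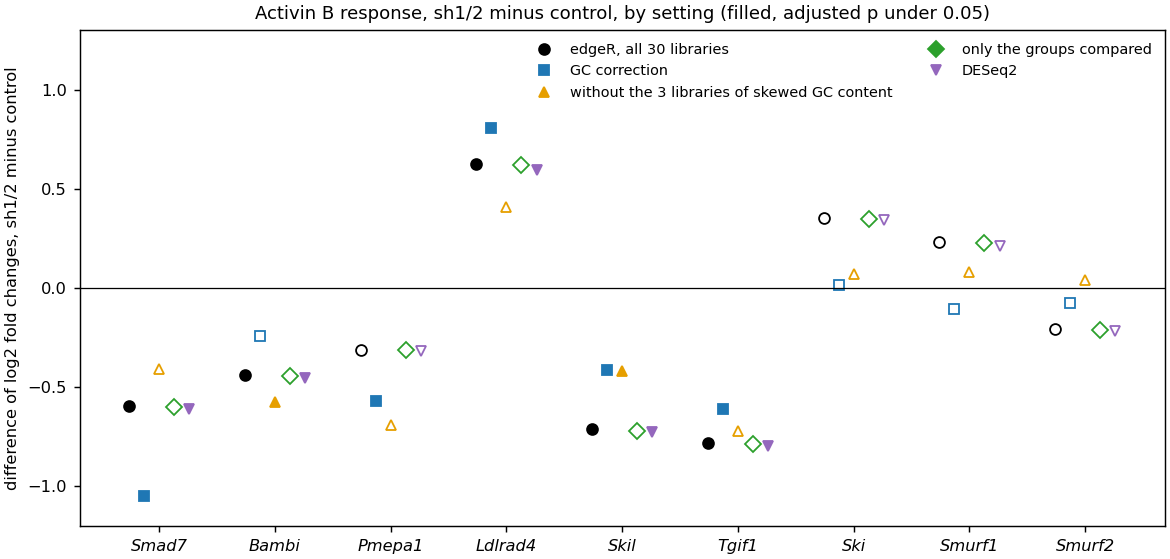
Difference of the activin B response between sh1/2 and control cells for each member under 5 settings, on the log2 scale. Filled markers have an adjusted p under 0.05. Skil, Tgif1, Bambi and Smad7 lie below 0 and Ldlrad4 above 0 under every setting shown, but the open diamonds, from the fit of only the groups compared, pass for no member.

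In the other 3 lines 0 members differed from the control response by the edgeR quasi-likelihood test, and 0 by DESeq2. The shares of all genes called were 0.0256% for ALK7, 0.00% for ALK7-DN and 0.0128% for sh2 cells. An unadjusted p under 0.05 was reached by 1595, 342 and 527 of the 15627 genes tested, and by 4, 1 and 1 of the members. For ALK7 cells these members were Ldlrad4 (0.65 ± 0.17, adjusted p = 0.223), Smad7 (0.62 ± 0.17, adjusted p = 0.263), Pmepa1 (0.60 ± 0.22, adjusted p = 0.445) and Ski (0.38 ± 0.17, adjusted p = 0.482), each larger than in control cells. With the replicate number as a block within each line, Ldlrad4 passed (0.66, adjusted p = 0.0453). The unadjusted 95% intervals of the differences in ALK7 cells were 0.26 to 0.97 for Smad7, 0.31 to 0.998 for Ldlrad4 and -0.18 to 0.16 for Bambi. The intervals of Smad7 and Ldlrad4 leave out 0 because these genes were picked by the unadjusted p of the same test, so they add no support. In ALK7-DN cells, whose activin B libraries were in the other batch, the difference of Bambi was -0.17 ± 0.08 and the others lay between -0.18 and 0.08. In sh2 cells, whose DOX libraries were in the other batch, Bambi differed by -0.31 ± 0.08 (adjusted p = 0.629), and the interval of Skil ran from -0.25 to 0.19.

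The third comparison asked whether the feedback genes differed between lines at the same treatment. All lines were set against the same 3 control libraries of each treatment, so their differences from control are not independent of each other. With DOX alone, ALK7 cells had 1 member called higher than control cells, against 1.98% of all genes called in either direction: Bambi at 1.18-fold (0.24 ± 0.06, adjusted p = 0.0303), a call that was lost in 9 of 13 alternative settings, among them without any 1 library other than ALK7 DOX replicate 3 (0.19 to 0.26, adjusted p from 0.062 to 0.194). With the replicate number as a block, Skil (0.27, adjusted p = 0.0442) and Ski (-0.30, adjusted p = 0.0412) were called as well. In ALK7-DN cells 0 members were called by edgeR and 0 by DESeq2 (0.966% of all genes). Only 1, Ldlrad4, had an unadjusted p under 0.05 (-0.29 ± 0.12), as did 1319 of the 15627 genes tested. In sh2 cells Bambi was higher (0.50 ± 0.06, adjusted p = 2.56e-06) and Ldlrad4 lower (-0.71 ± 0.13, adjusted p = 0.000491), where 9.99% of all genes were called. These sh2 libraries were in the other batch than the control libraries, and the Ldlrad4 call was lost in a model of the 6 libraries compared (-0.71, adjusted p = 0.0803).

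The sh1/2 cells differed most from the control with DOX alone. There 4 members were higher and 2 lower, where 38.0% of all genes were called, so that the share of members called, though larger, stands beside a high background. Ldlrad4 was 2.33-fold lower (-1.22 ± 0.13, adjusted p = 1.25e-07), and Bambi was 1.67-fold higher (0.74 ± 0.06, adjusted p = 7.08e-10). Skil was higher (0.48 ± 0.08, adjusted p = 1.99e-05). These 3 calls held in all 14 alternative settings run. Smad7 was higher (0.59 ± 0.13, adjusted p = 0.000783), as was Smurf2 (0.23 ± 0.06, adjusted p = 0.00582), and Pmepa1 was lower (-0.44 ± 0.16, adjusted p = 0.0391). Without the 3 libraries low on GC-rich genes, which leaves sh1/2 DOX replicate 2, the library with the highest GC correlation, as the only one of its group, the values were 0.31 for Smad7 (adjusted p = 0.174), 0.03 for Smurf2 (adjusted p = 0.835) and -0.15 for Pmepa1 (adjusted p = 0.697). Without sh1/2 DOX replicate 1 alone Smurf2 was not called (0.17, adjusted p = 0.0648), and Pmepa1 was not called without control DOX replicate 1 or 3 or sh1/2 DOX replicate 1 or 3 (-0.42 to -0.29, adjusted p from 0.102 to 0.218). Ski (0.13, adjusted p = 0.42), Tgif1 (0.27, adjusted p = 0.0704) and Smurf1 (-0.06, adjusted p = 0.46) did not pass. After correction for GC content Ski was called higher, without (0.31, adjusted p = 0.000803) and with the replicate block (0.31, adjusted p = 0.000105). The Gcg-led list of 6 genes of other islet hormone cells, of which 4 were tested, summed to 168 to 181 CPM in sh1/2 and 55.1 to 58.6 CPM in control libraries with DOX alone. The beta cell sum was 15950 to 21300 CPM in these sh1/2 and 25550 to 26550 CPM in these control libraries. The part of these differences in those of the members was not tested.

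With activin B, 2 members in ALK7 cells were higher than in control cells (4.53% of all genes called), namely Ldlrad4 (0.40 ± 0.11, adjusted p = 0.0335) and Bambi (0.23 ± 0.06, adjusted p = 0.0172). With the replicate block, Smad7 (0.30, adjusted p = 0.0454), Pmepa1 (0.47, adjusted p = 0.00625) and Tgif1 (0.35, adjusted p = 0.0279) were called higher too. The Ldlrad4 and Bambi calls were lost in a model of the 6 libraries compared (adjusted p = 0.135 and 0.238). Ldlrad4 was lost without any 1 library other than control activin B replicate 1 (adjusted p from 0.0762 to 0.186), and Bambi without ALK7 activin B replicate 1 or 2 or control activin B replicate 2 or 3 (adjusted p from 0.0616 to 0.116). In ALK7-DN cells, whose activin B libraries were in the other batch, 0 members were called by edgeR or DESeq2 (1.65% of all genes). An unadjusted p under 0.05 was reached by 1677 of the 15627 genes tested and by 5 members, all lower than in control cells. These members were Smad7 (-0.34 ± 0.11), Skil (-0.21 ± 0.07), Pmepa1 (-0.36 ± 0.15), Ldlrad4 (-0.26 ± 0.11) and Tgif1 (-0.24 ± 0.11). Line and batch cannot be told apart in these values. In sh2 cells, within batch 1, Ldlrad4 (-0.63 ± 0.11, adjusted p = 0.000417) and Pmepa1 (-0.51 ± 0.15, adjusted p = 0.0279) were lower and Bambi was higher (0.18 ± 0.06, adjusted p = 0.042), where 9.23% of all genes were called. The Ldlrad4 call held in all 14 alternative settings, that of Pmepa1 in 9 and that of Bambi in 6. Pmepa1 was lost without any 1 library other than control activin B replicate 2 (-0.54 to -0.42, adjusted p from 0.0664 to 0.121), and Bambi without replicate 2 or 3 of either group (0.15 to 0.18, adjusted p from 0.112 to 0.173).

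In sh1/2 cells with activin B 3 members were higher and 4 lower than in control cells, where 35.2% of all genes were called. Pmepa1 was 1.68-fold lower (-0.75 ± 0.15, adjusted p = 0.000342), Ldlrad4 1.51-fold lower (-0.60 ± 0.11, adjusted p = 0.000173) and Tgif1 1.43-fold lower (-0.51 ± 0.11, adjusted p = 0.000598), and Ski was 1.39-fold higher (0.48 ± 0.12, adjusted p = 0.00243). Bambi was higher as well (0.30 ± 0.06, adjusted p = 0.000189), and these 5 calls held in all 14 alternative settings. The calls of Skil (-0.23 ± 0.07, adjusted p = 0.0163) and Smurf1 (0.17 ± 0.06, adjusted p = 0.0404) were lost after correction for GC content (adjusted p = 0.232 and 0.838), and that of Smurf1 held in 4 of 14 settings. Skil was also lost without control activin B replicate 2 (-0.20, adjusted p = 0.0756) or sh1/2 activin B replicate 2 (-0.20, adjusted p = 0.0667), and Smurf1 without any 1 library other than control activin B replicate 1 (0.08 to 0.19, adjusted p from 0.0521 to 0.327). Smad7 differed from control cells by 0.01 ± 0.11 in sh2 and -0.01 ± 0.11 in sh1/2 cells, less than the spread between libraries. The hormone cell list summed to 40.7 to 41.4 CPM in these sh1/2 libraries and 18.4 to 18.9 CPM in control libraries, and its part was not tested.

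**Figure D5:**
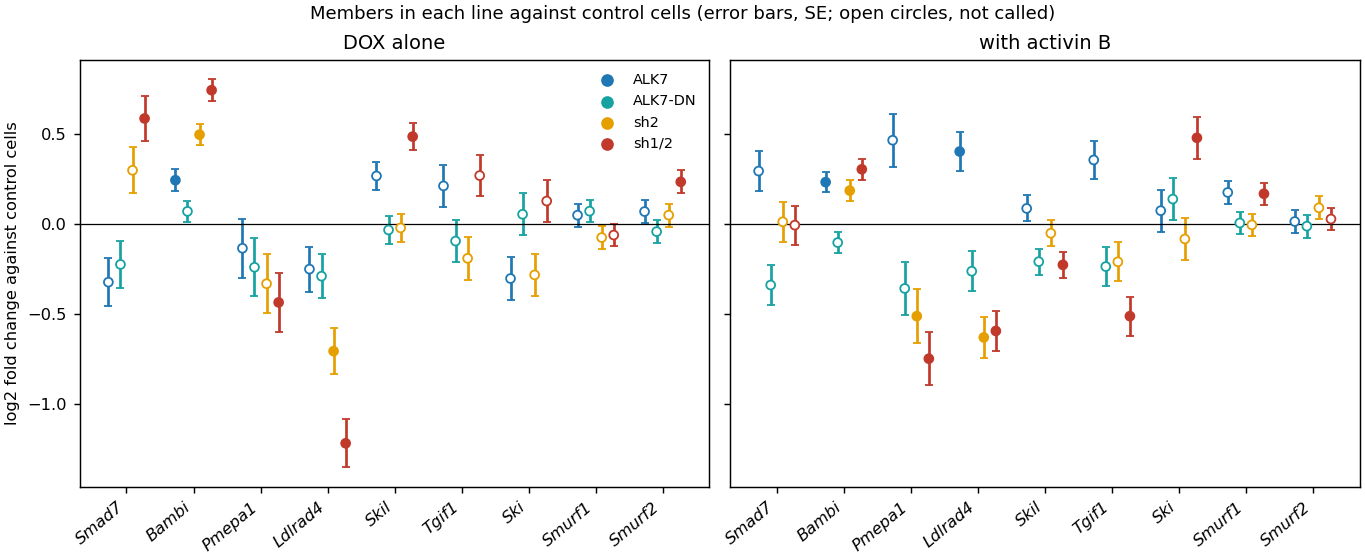
Log2 fold change of each tested member in each line against control cells, with its SE, for DOX alone (left) and with activin B (right). Filled circles have an adjusted p under 0.05. Ldlrad4 lies below 0 in both hairpin lines in both panels, with its lowest value of -1.22 in sh1/2 cells with DOX alone, and Pmepa1 is called lower in both hairpin lines with activin B.

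The hairpin lines were compared with each other where they had a batch in common, with activin B. Ski was 1.48-fold higher in sh1/2 than in sh2 cells (0.56 ± 0.12, adjusted p = 0.000863), a call that held in all 13 alternative settings, where 23.3% of all genes were called. Smurf1 (0.17 ± 0.06, adjusted p = 0.0473) was called higher and Tgif1 (-0.30 ± 0.11, adjusted p = 0.0459) lower, and these calls held in 5 and 3 of 13 settings. Smurf1 was lost without any 1 library other than sh2 activin B replicate 1 (adjusted p from 0.0632 to 0.17), and Tgif1 without any other than sh1/2 activin B replicate 1 (adjusted p from 0.079 to 0.183). Ldlrad4 and Smad7 differed by 0.04 ± 0.11 and -0.02 ± 0.11, within the spread between libraries. Acvr1c itself was lower in sh1/2 than in sh2 cells in this comparison (-0.68 ± 0.11, adjusted p = 4.88e-05).

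Other genes of the pathway were counted by lists, whose counts in control cells stand beside the 20.3% of all genes called there in either direction. The lists overlap, so their counts are not separate evidence. Tgfbr1 and Spsb1 are also among the SMAD2/3 targets below, and Smad9 is also among the BMP targets. Among 16 tested receptors and SMADs, 6 were higher and 2 lower with activin B in control cells. Smad3, which carries the activin signal, fell from 13.7 ± 0.831 to 6.197 ± 0.666 CPM (-1.14 ± 0.09, adjusted p = 2.94e-10). The type I receptor gene Acvrl1 rose from 0.668 ± 0.102 to 1.55 ± 0.171 CPM (1.21 ± 0.21, adjusted p = 0.000139), and Acvr1c fell (-0.71 ± 0.10). The median log2 fold change of this list was 0.14 in control cells. A further 19 tested genes were listed as inhibitors of activin, TGF-β or BMP signalling. Whether each restrains the activin branch was not tested. In control cells 0 of them were higher and 2 lower by edgeR and by DESeq2. Their median was -0.10, with 5 genes at an unadjusted p under 0.05 in either direction. The 2 called lower by edgeR were the phosphatase gene Ctdspl (-0.30 ± 0.07, adjusted p = 0.0024) and the SOCS box gene Spsb1 (-0.37 ± 0.10, adjusted p = 0.012). Sik1, a kinase gene, did not pass (-0.40 ± 0.15, adjusted p = 0.0601). Over the other 4 lines 0 to 2 of these 19 genes were higher and 3 to 4 lower. In sh1/2 cells against control cells with activin B, Spsb1 (0.96 ± 0.10) and Sik1 (1.16 ± 0.14) were both higher.

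Of 10 genes for the turnover of the feedback proteins, 0 were called in control cells by edgeR and 0 by DESeq2, with 1 at an unadjusted p under 0.05. The ubiquitin ligase gene Rnf111, whose product degrades SMAD7, SKI and SnoN, stood at 37.3 ± 0.821 CPM with DOX alone and 41.6 ± 1.78 CPM with activin B (0.16 ± 0.06, adjusted p = 0.0882), and was called higher in sh2 cells alone (0.28 ± 0.06, adjusted p = 0.00232). The deubiquitinase gene Usp15 passed in no line, and Fzr1, a coactivator of the anaphase-promoting complex, passed in sh1/2 cells (0.67 ± 0.21, adjusted p = 0.0169). Of the 10 genes, 0 were higher and 2 lower in ALK7 cells (25.3% of all genes called). In sh1/2 cells 1 was higher and 3 lower, with a median of -0.14 (36.6%). The counts were 0 and 0 in ALK7-DN (16.1%) and 1 and 0 in sh2 cells (19.6%). The sh1/2 libraries with DOX alone were widely spread for Fzr1, at 53.0, 55.0 and 95.9 CPM, against 102 to 112 CPM with activin B. Among 23 tested SMAD2/3 targets that are not members, 8 were higher and 2 lower in control cells, with a median of 0.08. The 3 with the smallest p were the latent TGF-β binding protein gene Ltbp2 (3.92 ± 0.22), the apoptosis gene Bmf (3.23 ± 0.15) and Tgfb1 (2.63 ± 0.29). These genes were low in control cells with DOX alone, at 0.365 ± 0.0689, 1.17 ± 0.198 and 0.320 ± 0.0697 CPM. Ltbp2 had 6 to 11 reads per library there and Tgfb1 had 7 to 9. With activin B the values were 5.63 ± 0.501, 10.9 ± 1.65 and 1.96 ± 0.714 CPM. In sh1/2 cells the response of Bmf was smaller (-1.53 ± 0.21, adjusted p = 0.000194), and those of Ltbp2 and Tgfb1 did not differ by the test. Of 9 tested BMP targets 2 were higher and 4 lower in control cells: Id3 fell from 67.3 ± 4.47 to 20.1 ± 3.56 CPM (-1.74 ± 0.21, adjusted p = 4.7e-07) and Atoh8 by 0.78 ± 0.21, and the BMP antagonist gene Grem1, at 0.569 ± 0.0791 CPM with DOX alone, rose by 1.71 ± 0.28. Id3 was called lower in all 5 lines, but the list did not move as a whole. In ALK7 cells 4 of the 9 were higher and 1 lower, with a median of 0.19 (25.3% of all genes called). The counts were 2 higher and 4 lower in ALK7-DN (16.1%), 2 and 5 in sh2 (19.6%) and 1 and 5 in sh1/2 cells (36.6%).

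The likeness of expression patterns was measured as Pearson's r over the 10 group means of log2 CPM, and genes below a mean of 2 CPM were left out. These values share libraries and treatment and are given as a description. Among the members, Smad7 and Bambi were the closest pair (r = 0.987), then Pmepa1 and Ldlrad4 (0.980), Smad7 and Skil (0.976) and Bambi and Skil (0.973). Ski was the member least like the others, with r from 0.450 with Smurf2 to 0.689 with Smurf1. The genes most like Bambi were the growth-arrest gene Btg2 (0.995), the RNA-binding protein gene Khdrbs3 (0.994) and Igfbpl1 (0.991). For Skil they were the protease gene Adamts6 (0.995), Alpl, the alkaline phosphatase gene (0.993), and the zinc finger gene Myt1 (0.993). For Pmepa1 they were the amyloid precursor gene App (0.996), the matrix protein gene Spon2 (0.995) and Tm4sf4 (0.993). Those of Smad7 were Map7 (0.987), Bambi and Rhbdl3 (0.985), and those of Ldlrad4 were the adaptor gene Shc1 (0.993), Ace (0.987) and Dio1 (0.986). The patterns closest to Tgif1 were Trak2 (0.990), Ldlrad3 (0.985) and the junction gene Jam2 (0.985). Smurf1 had the weakest matches, Rhbdf2 (0.968), Cdc42se1 (0.967) and the kinase gene Csnk1e (0.966).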

How the data were processed

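Poly(A) RNA was measured in 30 libraries of 5 βTC3 lines with and without activin B. The authors deposited raw read counts per gene. Per the submitters' processing notes, bcl2fastq 2.17, cutadapt 1.4.2, HISAT2, the build mm10 and featureCounts 1.4.4 were used, and the strand setting was not given in the sources used here. All 30 columns were mapped to a sample and 0 were left unassigned. Counts were analysed in R 4.3.3 with edgeR 4.0.16: low-count filter filterByExpr, TMM normalization, 10 group means, quasi-likelihood F test and Benjamini-Hochberg adjustment over 15627 genes at 0.05. The SE is the absolute log2 fold change divided by the square root of F. Each adjusted p of a gene comes from this test unless DESeq2 1.42.0 is named. The scripts were tested on simulated data. Replicates differed by more than counting error (lowest chi-square per degree of freedom 8.27).

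All 10 members, Acvr1c, the 3 genes of each pathway list with the smallest p in control cells and the 3 genes most like each member called there were named; log2 CPM for likeness had a prior count of 2. The members and lists were chosen with earlier results of these data known, so that neither is independent evidence of a direction. Same-numbered libraries of a line deviated together, with correlations over 0.1 for every number in ALK7 (0.209, 0.109 and 0.124), ALK7-DN (0.329, 0.102 and 0.177) and sh1/2 cells (0.325, 0.233 and 0.130), and not in control (0.309, 0.258 and 0.0794) or sh2 cells (0.231, 0.0932 and 0.185). The labels do not say that a number marks a shared plate or day. Alternatives were DESeq2, upper-quartile normalization, no low-count filter, the replicate block, a GC correction (lowess span 0.3) with and without the block, only the groups compared, leaving out each library or the 3 libraries low on GC-rich genes, and, for ALK7-DN, a batch term estimated from the hairpin lines. The authors' normalized table was not used here.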

Additional observations from a re-analysis of the deposited data

Results flagged for a closer look

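For 5 members the activin B response of sh1/2 cells differed from that of control cells by a test of the difference itself (edgeR interaction term). The difference of log2 fold changes, sh1/2 minus control, was -0.59 for Smad7, -0.44 for Bambi, -0.71 for Skil, -0.78 for Tgif1 and 0.62 for Ldlrad4. In a model of these 12 libraries alone none of the 5 passed. The hairpins and the PB-31 backbone cannot be told apart in this difference.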

How the results depend on the processing

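The rises of Smad7, Bambi, Skil, Pmepa1, Ldlrad4 and Tgif1 kept their direction and call in every alternative and line, except Tgif1 in sh1/2 cells with only the groups compared. The number of members called for the activin B response ran from 6 to 9 in control and ALK7-DN cells. It ran from 8 to 9 in ALK7, 7 to 9 in sh2 and 7 to 8 in sh1/2 cells. Over all member values and alternatives, 124 lost a call, 63 gained one and 1 value called in an alternative had the opposite sign, while values called in neither model changed sign more often (Smurf1 in ALK7-DN against control cells with activin B in 7 of 14 alternatives). Leaving out the 3 libraries low on GC-rich genes keeps 1 library of sh1/2 cells with DOX alone. In ALK7 against control cells with DOX alone, 1 member was called, against 2 by DESeq2, 2 with the GC correction and 2 with it and the block, 0 with no filter on low counts, 0 with only the groups compared and 0 to 1 without single libraries. With activin B, 2 were called in ALK7 cells, against 4 by DESeq2, 5 with the GC correction, 5 with it and the block, 1 with no filter, 0 with only the groups compared, 0 without the 3 libraries low on GC-rich genes and 0 to 5 without single libraries. In ALK7-DN cells with activin B, the 0 calls became 1 with the GC correction (Pmepa1), 2 with it and the block and 1 without the 3 libraries (Smad7). For sh2 against control cells with DOX alone, 2 calls became 4 with the GC correction, 4 with it and the block and 1 with only the groups compared, and with activin B 3 calls became 1 to 2 without single libraries. For sh1/2 cells with DOX alone, 6 calls became 3 with only the groups compared, 3 without the 3 libraries and 4 to 7 without single ones. In sh1/2 against sh2 cells, 3 calls became 1 with no filter, 5 with only the groups compared and 1 to 2 without single libraries. The 5 differences between the sh1/2 and control responses became 0 with only the groups compared, 2 without the 3 libraries and 3 to 8 without single ones. The cause of these changes was not tested.

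With the replicate number as a block, 3 members were called in ALK7 against control cells with DOX alone (Bambi, Skil 0.27 and Ski -0.30) and 5 with activin B, where Smad7 (0.30), Pmepa1 (0.47) and Tgif1 (0.35) joined. The difference of the ALK7 and control responses had 1 call, Ldlrad4 (0.66), and 1 under GC correction plus block as well. It also gave calls of Ski in sh2 cells (0.28 for the activin B response, -0.28 against control cells with DOX alone) and of Ski (0.37) and Smurf1 (0.24) for the sh1/2 difference, and it changed no other call of a member. Under GC correction plus block, Smurf1 in sh1/2 against control cells with DOX alone changed sign to 0.12, Usp15 changed sign to 0.10 for the activin B response in sh1/2 cells, and Usp15 in sh1/2 against control cells with activin B changed sign to 0.13 both with the GC correction alone and with the block.

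The number of all genes called moved by over 1.5 times in most comparisons, which bears on the background shares. For the activin B response, GC correction plus block gave 5342 genes in control cells (3180 in the model of all libraries), 6072 in ALK7 (3953), 4622 in ALK7-DN (2515) and 5525 in sh2 cells (3070). With only the groups compared, control cells had 1734 and sh1/2 cells 1555 (5723), and sh1/2 cells had 1476 without the 3 libraries, 3055 without sh1/2 DOX replicate 1 and 2974 without replicate 3. The batch term, which assumes that both hairpin lines respond alike, gave 4096 genes in ALK7-DN cells. The sh1/2 difference, with 2768 genes, had 989 with no filter, 5956 with the block, 927 with the GC correction, 64 without the 3 libraries, 45 with only the groups compared and 289 to 6983 without single libraries. The other response differences, with 4 (ALK7), 0 (ALK7-DN) and 2 genes (sh2), reached at most 441, 5 and 14. Against control cells with DOX alone, counts ran from 151 to 1670 in ALK7 (310), 25 to 519 in ALK7-DN (151), 863 to 3741 in sh2 (1561) and from 2430 in sh1/2 cells (5934). With activin B they ran from 46 to 2166 in ALK7 (708), 11 to 900 in ALK7-DN (258) and 440 to 3389 in sh2 cells (1443), and up to 5905 in sh1/2 against sh2 cells (3643).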
